A study of Drosophila melanogaster with 12 samples.

Results

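The 6 ovary libraries of Drosophila melanogaster that carried a germline knockdown were set, as one side, against the 4 libraries labelled young control. These are 10 of the 12 libraries of the series, and they were chosen by their labels. On the knockdown side were 2 libraries for each target, SETDB1, wde or Nup154 (labelled GKD), and the titles of the SETDB1 pair name its gene, egg. The control side held a pair whose titles name NGVP16 and a pair whose titles name virgin flies, 1 of which also names Dcr. All were labelled as ovaries dissected 1 to 3 days after eclosion. The adult control pair was left out. The labels give no driver, hairpin or strain background for any group, so an effect of these and an effect of the knockdown cannot be told apart. Nothing in the labels says that the libraries of a pair came from separate flies, so the spread behind each p-value may be technical only. The series uses Nup154 GKD as a control for development, and the question addressed here is what the 3 knockdowns have in common against young control ovaries.

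A fly ovary is a bundle of egg tubes, each wrapped in a muscle sheath. At the tip of each tube, in the germarium, stem cells held by a niche of somatic cells produce cysts of germ cells, in which 1 cell becomes the oocyte and the others become nurse cells. Follicle cells enclose each cyst, and the egg chamber then grows as nurse cells replicate their DNA many times over and supply the oocyte with mRNA, ribosomes and mitochondria. In late stages the oocyte takes up yolk, follicle cells secrete the vitelline membrane and then the chorion of the eggshell, nurse cells empty into the oocyte and die, and the oocyte is loaded with the mRNAs that pattern the embryo. Egg methylates H3K9 in the fly germline together with its partner Wde, and Nup154 belongs to the scaffold of the nuclear pore.

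Total counts ran from 9937877 to 14433500 per knockdown library and from 7351948 to 20162235 per control library. Levels are given as CPM after TMM scaling, the counts of a gene relative to the scaled total of its library, for the knockdowns as the lowest, median and highest of the 6 libraries, and for the controls in the order NGVP16 1, NGVP16 2, virgin 1 and virgin 2. A gene was called when its Benjamini-Hochberg adjusted p in the quasi-likelihood F test of edgeR was under 0.05, and fold changes are log2, knockdowns minus controls, ± SE. NGVP16 control 1 stood apart from its pair. Cytoplasmic ribosomal protein genes took 24.1% of its counts and 9.50% of those of NGVP16 control 2. Over 7249 genes the difference within this pair had a Spearman's rho of -0.566 with exon length, which is a description, since genes are no replicates. For the virgin pair rho was -0.389, and for the knockdown pairs 0.0216 to 0.151. Between the virgin and NGVP16 pairs 166 genes were called (1.64%), and 60 of these are among the common genes below. The part of RNA quality or library preparation in these differences was not tested. List counts that moved by over 1.5 times on leaving out 1 library are given beside the count, apart from counts under 3 that moved by 1.

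Of the 3 targeted genes, Nup154 was lower in every knockdown library than in any control library. Nup154 (FBgn0021761, chromosome 2L, 11004820 to 11010921) was at 72.5, 88.4 and 109 CPM in the knockdowns against 144, 224, 229 and 286 CPM in the controls, a change of -1.30 ± 0.19 (adjusted p = 0.000594). The change was -1.11 ± 0.28 (SETDB1), -1.26 ± 0.28 (wde) and -1.52 ± 0.28 (Nup154), so the gene was low in the knockdowns of egg and wde as well as in its own. With libraries scaled to the ribosomal protein genes the adjusted p of Nup154 was 0.128. egg (FBgn0086908, chromosome 2R, 24775534 to 24779901) was at 31.8 and 37.8 CPM in the 2 SETDB1 GKD libraries, at 34.3, 70.8, 64.5 and 75.5 CPM in the controls and at 46.8 to 56.2 CPM in the other knockdowns. NGVP16 control 1 lay between the 2 SETDB1 GKD libraries and the other 3 controls lay above both. Over all knockdowns egg changed by -0.43 ± 0.21 (adjusted p = 0.103). Without NGVP16 control 1 it was called lower (-0.73, adjusted p = 0.00114), as it was in 4 other alternatives. wde (FBgn0027499, chromosome 2R, 10800420 to 10808938) was at 74.4 and 92.9 CPM in the 2 wde GKD libraries, at 235 and 193 in SETDB1 GKD and at 43.1, 143, 85.5 and 94.95 CPM in the controls. Its change over all knockdowns was 0.34 ± 0.30 (adjusted p = 0.349) and took the other sign, at -0.05, without NGVP16 control 1. The mRNA level of wde therefore did not check the label of its knockdown, and whether that of egg set SETDB1 GKD apart from the controls rested on NGVP16 control 1. Whole ovaries also hold somatic cells that a germline knockdown does not target, and reads of genes on the opposite strand, present at egg and Nup154, cannot be told apart here because the strand setting of the counts is not given.

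Most genes tested differed between the sides. Of 10105 genes, 5767 were called, 57.1% of those tested, with 3250 higher in the knockdowns (32.2%) and 2517 lower (24.9%). A stricter class, called common below, asked in addition that all 6 knockdown libraries lie on one side of all 4 control libraries. It held 3362 genes (33.3%), 1974 higher (19.5%) and 1388 lower (13.7%). The rises were larger than the falls. Of the common genes, 1807 were at least 2-fold higher and 945 at least 2-fold lower, while 846 were at least 8-fold higher and 96 at least 8-fold lower. Common higher genes took 25.6% to 30.9% of the counts of each knockdown library and 6.40% to 9.62% of each control library. Common lower genes took 8.01% to 10.6% in the knockdowns and 22.8% to 24.6% in the controls. Knockdown libraries also held more genes, with 9037 to 9598 at 1 CPM or more against 7765 to 8549 in the controls. Without NGVP16 control 1 the common class held 2231 higher and 2158 lower genes. The side that genes of moderate change fall on depends on the scaling. The median change over all genes was 0.12 in the fit reported and 0.60 with libraries scaled to the ribosomal protein genes, where 85.6% of called genes were higher against 56.4% here. With the trend on exon length removed, 42.5% of called genes were higher.

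**Figure D1:**
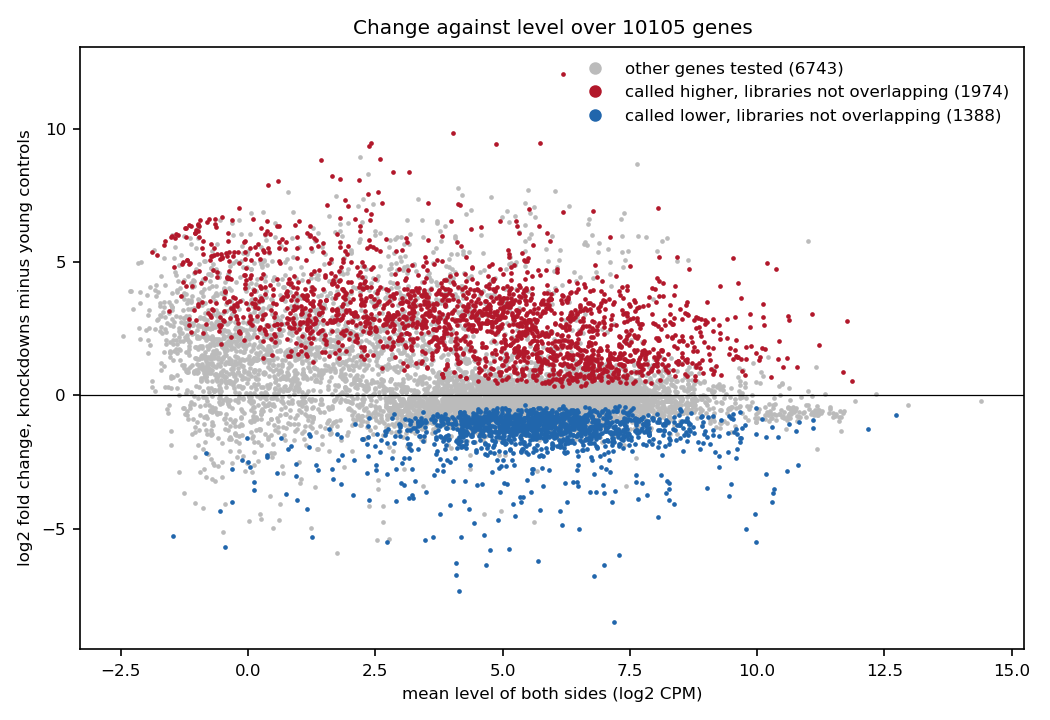
Log2 fold change of the knockdowns against the young controls (vertical axis) against the mean level of both sides in log2 CPM (horizontal axis), 1 point a gene for 10105 genes tested. Red and blue points are the 1974 and 1388 genes called higher or lower whose 6 knockdown and 4 control libraries did not overlap, and the rises reach further from 0 than the falls. Values of genes with a set at 0 counts depend on the prior count of the fit.

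The eggshell genes fell furthest. All 13 chorion genes tested were called lower, against 24.9% of all genes, with a median change of -4.44 (all genes 0.12). The median is -4.34 when 3 genes with a set at 0 counts are held at a floor of 3 counts. Cp36 (FBgn0000359, chromosome X, 8479319 to 8480523), a main structural protein of the inner chorion, was at 0.290, 1.94 and 23.5 CPM in the knockdowns against 594, 122, 100.4 and 166 CPM. All knockdown libraries lay below all controls, and the change was -6.35 ± 0.54 (adjusted p = 3.07e-05). Its neighbour Cp38 (chromosome X, 8481837 to 8483311) was at 0.194, 2.85 and 34.7 CPM against 750.4, 115.5, 169.8 and 169 CPM, again without overlap (-5.99 ± 0.67, adjusted p = 0.000204). Cp7Fc (chromosome X, 8477117 to 8478320), a chorion protein gene of the same cluster, was at 0.458, 0.625 and 8.80 CPM against 81.7, 189.9, 23.4 and 111 CPM (-6.21 ± 0.51, adjusted p = 2.76e-05). Cp36 was the chorion gene that differed among the knockdowns. It was at 1.11 and 2.77 CPM (SETDB1), 0.290 and 0.788 CPM (wde) and 23.5 and 13.6 CPM (Nup154), and the F test among the 3 knockdowns gave an adjusted p of 0.0318. Of the 13 genes, 6 were common (13.7% of all genes were common lower) and the others overlapped between the sides. Without NGVP16 control 2, 10 of 14 were common. Without NGVP16 control 1, the library with the largest chorion share, 9 of 14 tested were called, and 8 of 13 were called when the 10 libraries were taken as 2 groups. In all these results, fewer cells of a type and less RNA per cell cannot be told apart in bulk ovaries.

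The genes of the vitelline membrane, which follicle cells make before the chorion, fell nearly as far. Of 15 tested, 13 were called lower and 12 of these were common, against 24.9% and 13.7% of all genes. The median change was -3.93. Vm26Ac (FBgn0086266, chromosome 2L, 5958005 to 5958631) was at 0, 0.230 and 0.444 CPM against 41.8, 26.6, 35.1 and 37.95 CPM (-7.33 ± 0.48, adjusted p = 1.03e-05). Vm32E, a late vitelline membrane protein, was at 0, 1.46 and 6.40 CPM against 101, 39.7, 287 and 451 CPM (-6.77 ± 0.82, adjusted p = 0.000336). More abundant members were uneven among the knockdowns. Vm26Aa (FBgn0003979, chromosome 2L, 5959596 to 5960340) was at 20.8, 20.6, 23.9, 612, 88.5 and 73.8 CPM in SETDB1 GKD 1 and 2, wde GKD 1 and 2 and Nup154 GKD 1 and 2, against 1895, 779, 2130.1 and 2567 CPM. Vm34Ca was at 5.03, 4.68, 8.71, 381, 71.0 and 80.2 CPM in the same order, against 2065, 970.5, 1893 and 2800.3 CPM. In both genes wde GKD 2 held over 10 times the level of wde GKD 1, yet it stayed below every control. fs(1)N and fs(1)M3, eggshell proteins that also take part in the signal at the embryo's ends, fell by 3.91 and 3.50 on the log2 scale, and Fcp3C by 4.78. ndl, a protease made by follicle cells for the dorsal-ventral axis, was called lower (by 2.34) but overlapped. Cad99C and pip were not called, at -0.49 ± 0.35 and -0.44 ± 0.57. As shares of all counts, the vitelline list took 0.0202% to 0.201% of each knockdown library and 0.587% to 1.20% of each control. The exact permutation test over the 10 libraries gave p = 0.00952, the smallest that 210 ways to choose 6 of 10 allow (adjusted p = 0.0138 over 39 lists). Libraries of a pair are not independent, so this p describes these libraries.

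**Figure D2:**
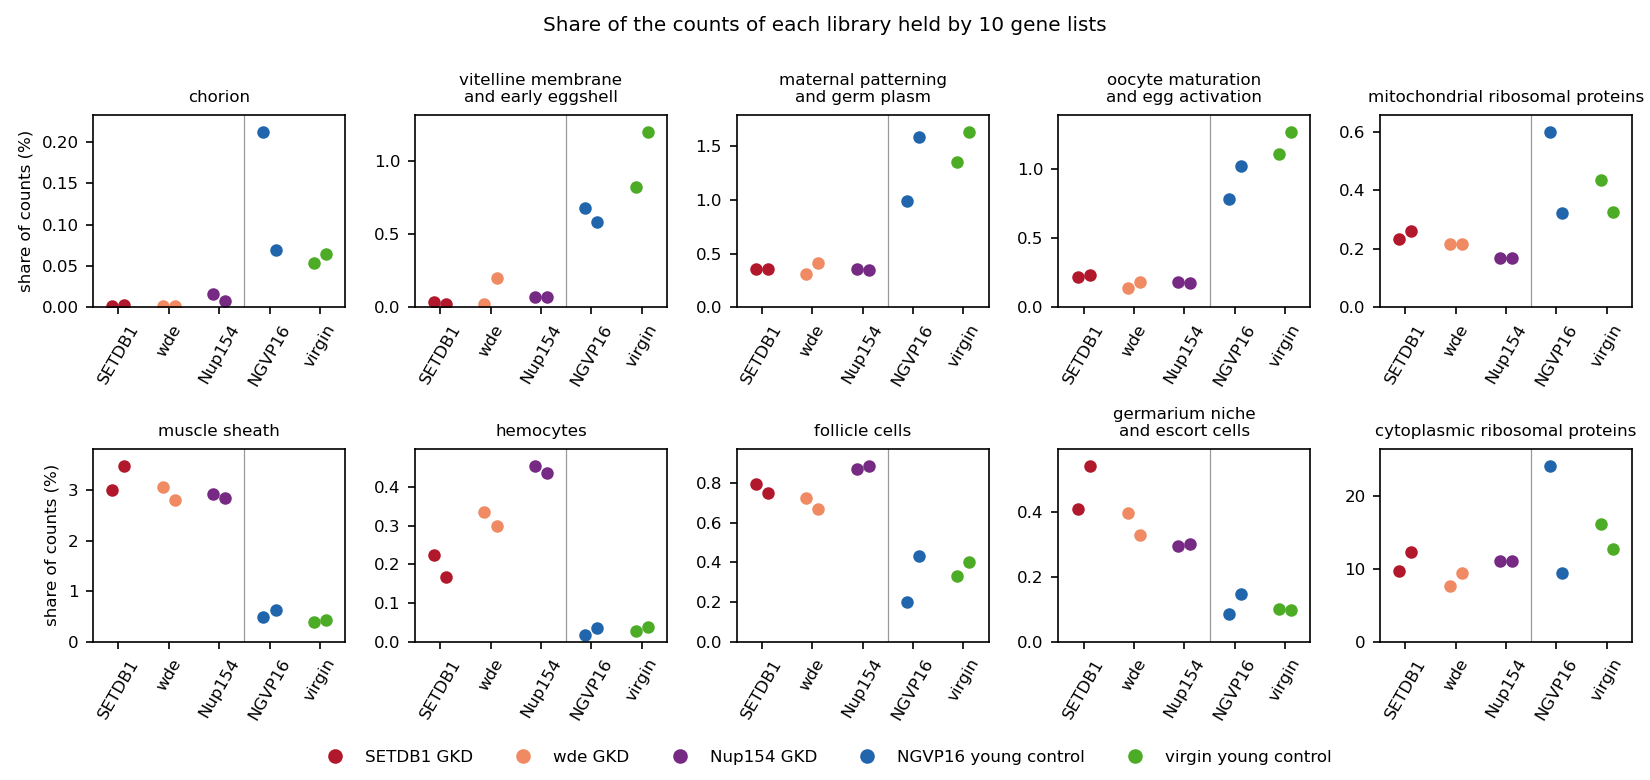
Share of the counts of each library, in percent, held by 10 gene lists, with 1 point a library and the 5 sets along the horizontal axis. Vertical axes start at 0 and differ between panels. The lists of the top row were lower in all 6 knockdown libraries than in all 4 controls, the first 4 lists of the bottom row were higher, and the cytoplasmic ribosomal proteins overlapped, with NGVP16 control 1 at 24.1%.

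Yolk genes were lower but less evenly. yl, the receptor by which the oocyte takes up yolk, was at 72.9, 148 and 271 CPM against 1315, 2530.0, 2273 and 3285 CPM, with no overlap and a change of -3.99 ± 0.33 (adjusted p = 2.87e-05). The yolk proteins themselves, which follicle cells and the fat body make, overlapped between the sides. Yp2 was at 134, 963 and 3226 CPM against 2064, 1722, 4826 and 5559.9 CPM (-2.01 ± 0.37, adjusted p = 0.00182). The Yp2 call was lost in 2 alternatives, one of them the 10 libraries taken as 2 groups. Yp1 was at 101, 479.7 and 1325 CPM against 746, 383, 1156 and 1749.8 CPM (-1.16 ± 0.35, adjusted p = 0.0195). Yp3 changed by -0.93 ± 0.35 (adjusted p = 0.0492), and its sign turned to 0.35 against the NGVP16 pair alone. Calls of Yp1 and Yp3 were also lost without NGVP16 control 1 or virgin control 2. Over all alternatives the call of Yp1 was lost in 8, ribosomal protein scaling and the NGVP16 pair as the only control among them, and that of Yp3 in 13. The highest knockdown library for Yp1, Yp2 and Yp3 was wde GKD 2. The list took 0.0464% to 0.599% of knockdown counts and 0.441% to 1.26% of control counts, with overlap (exact permutation p = 0.0286, 2-sided, adjusted p = 0.0384).

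Most genes that act as the oocyte matures and the egg is activated were lower. Of 28 tested, 23 were called lower and 20 of them were common, against 24.9% and 13.7% of all genes. None was called higher, and the median change was -2.46. dhd (FBgn0011761, chromosome X, 5312171 to 5313125), the germline thioredoxin that remodels sperm chromatin after fertilization, was at 30.0, 49.8 and 75.8 CPM against 2130.4, 1054, 2195 and 1489 CPM (-5.01 ± 0.38, adjusted p = 1.81e-05). plu, which with png and gnu forms the kinase complex of egg activation, was at 0.800, 1.00 and 2.01 CPM against 42.6, 14.6, 23.4 and 23.5 CPM (-4.46 ± 0.34, adjusted p = 2.02e-05). png and gnu fell by 1.77 and 2.70 on the log2 scale. APC7, part of the complex that marks cyclins for destruction, was at 2.29 and 1.243 CPM (SETDB1), 4.55 and 4.43 CPM (wde) and 13.2 and 11.5 CPM (Nup154), against 126, 147, 145 and 129.8 CPM. Its controls lay within a narrow band, the knockdowns all lay far below, and they differed among themselves (-4.88 ± 0.19, adjusted p among knockdowns = 0.0105). mtrm, an inhibitor of Polo in the arrested oocyte, fell by 3.98. Mos, the kinase gene of oocyte maturation, was at 0.607, 3.29 and 4.97 CPM against 76.4, 58.7, 85.0 and 69.4 CPM (-4.54 ± 0.45). CycB, the mitotic cyclin loaded into the egg, fell by 3.50, cort, a meiosis-specific activator of the anaphase-promoting complex, by 2.85, and wisp, a poly(A) polymerase of the oocyte, by 3.28. zld, which opens the embryo's genome for transcription, fell by 3.25, and BigH1, the linker histone of the early embryo, by 3.58. Klp10A, endos, ncd, CanB2 and sra were not called, at -0.46 to 0.17. With scaling to the ribosomal protein genes 18 of the 28 were called lower.

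The maternal mRNAs that lay out the embryo were lower too, though not all of them. Of 29 tested, 22 were called lower and 19 were common, against 24.9% and 13.7% of all genes. The median was -2.13, and 15 were called lower with ribosomal protein scaling. exu, which is needed to place bicoid mRNA, was at 16.4, 20.8 and 29.1 CPM against 521, 308, 633 and 587 CPM. No library came near the other side, and the change was -4.56 ± 0.21 (adjusted p = 7.09e-06). osk (FBgn0003015, chromosome 3R, 8935126 to 8938395), the organizer of germ plasm, was at 92.2, 172 and 323 CPM against 1759, 2528, 2480.0 and 2692 CPM (-3.68 ± 0.33, adjusted p = 4.41e-05). The mRNA of osk was thus present at over 90 CPM in every knockdown library. pgc, which silences transcription in the embryo's germ cells, was at 9.35 and 15.3 CPM (SETDB1), 2.03 and 1.38 CPM (wde) and 14.9 and 8.84 CPM (Nup154), against 145, 71.8, 184 and 121 CPM (-4.35 ± 0.30). bcd, the anterior determinant, fell by 3.34, tor, the receptor of the embryo's ends, by 2.86, and snk and ea, proteases of the dorsal-ventral cascade, by 3.74 and 2.13. Other members were not called. grk, the dorsal-ventral signal from the oocyte, was at 0.17 ± 0.14 and stau, an RNA-binding protein that anchors mRNAs, at -0.41 ± 0.24. tud, a scaffold of germ plasm, was at 0.83 ± 0.38. The counts of exu and osk may hold reads of genes on the opposite strand, as may those of 56 of the 182 genes named by rule.

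**Figure D3:**
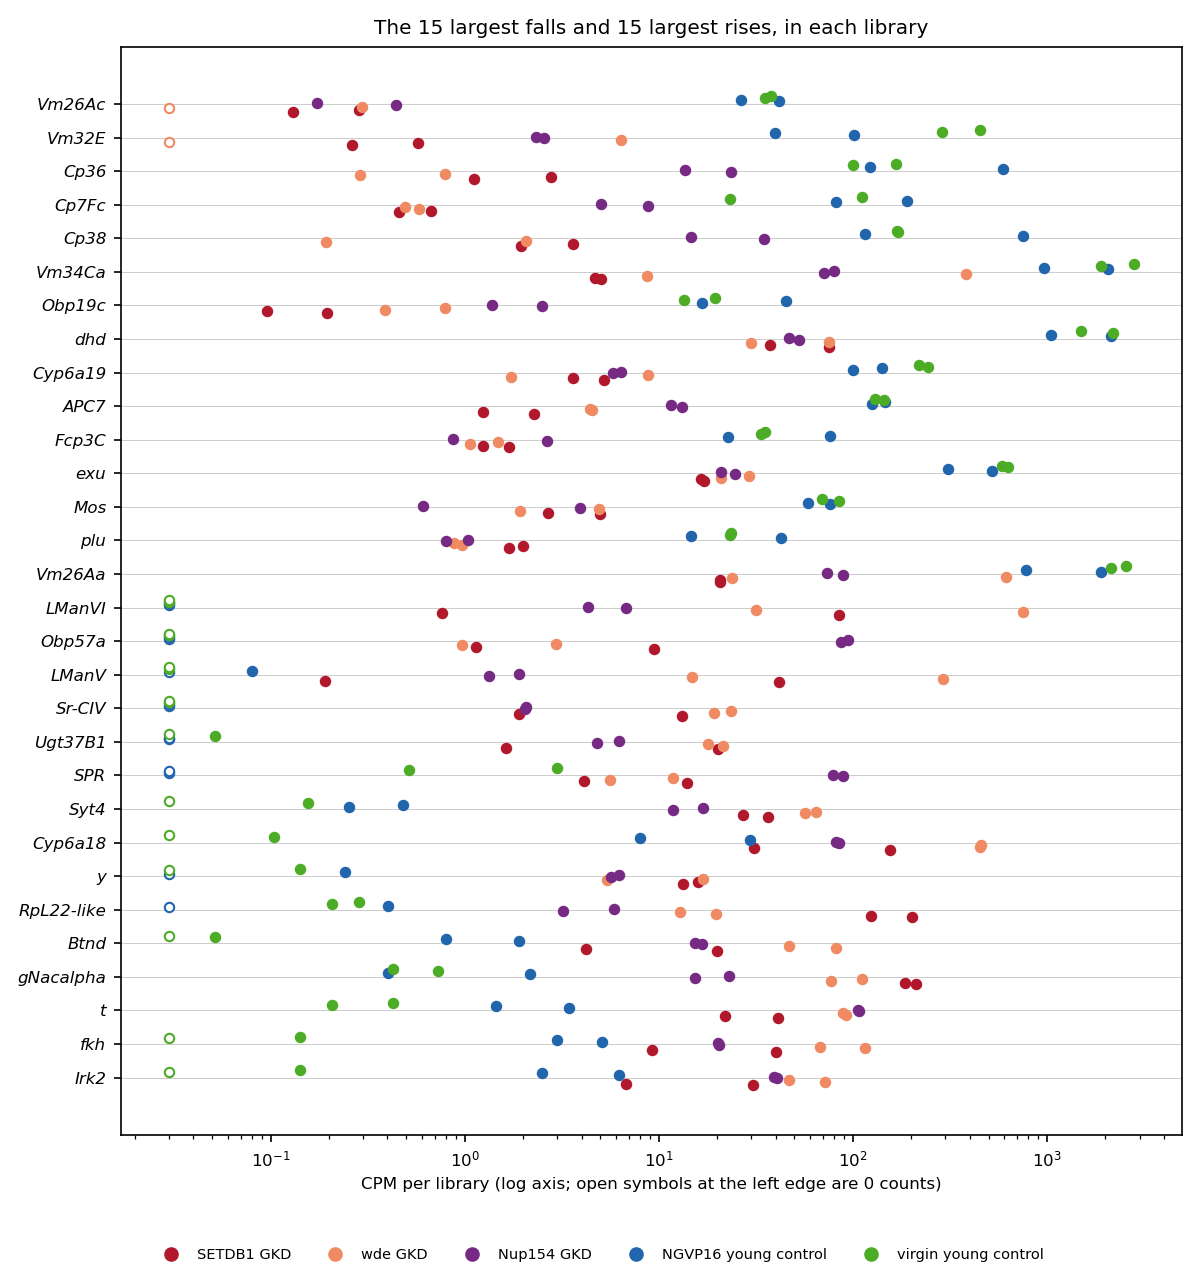
CPM of the 15 largest falls and 15 largest rises among common protein-coding genes with a name and at least 10 CPM on the higher side, in each of the 10 libraries (horizontal log axis). Filled points are libraries, coloured by set, and open points at the left edge are 0 counts. In each gene all 6 knockdown libraries lie on one side of the 4 controls, with wider spread among knockdowns than among controls in LManVI and LManV.

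Other genes among the largest falls code for proteins outside these lists. Cyp6a19, a cytochrome P450, was at 1.74, 5.50 and 8.76 CPM against 99.9, 141, 244 and 218.2 CPM (-4.99 ± 0.38, adjusted p = 1.93e-05). Obp19c, an odorant-binding protein, was at 0.0956, 0.587 and 2.49 CPM against 16.8, 45.4, 13.5 and 19.5 CPM (-5.30 ± 0.43). zyd, a potassium-dependent sodium and calcium exchanger, was at 2.26, 4.51 and 10.5 CPM against 98.5, 112, 99.5 and 94.0 CPM (-4.30 ± 0.20, adjusted p = 7.09e-06). The 4 controls of zyd spanned a narrow range and every knockdown library was at 10.5 CPM or less.

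Genes of growth and of the nurse cells were lower by less, and these calls depended on scaling. Among mitochondrial ribosomal proteins, 67 of 70 were called lower and none higher, with a median of -1.15 and a range of -1.997 to -0.54. mRpL32 was at 10.1, 14.3 and 16.4 CPM against 69.4, 25.9, 52.1 and 30.1 CPM (-1.73 ± 0.28, adjusted p = 0.000993), and mRpS21 at 1.87, 4.71 and 5.69 CPM against 22.0, 10.5, 19.8 and 11.7 CPM (-1.997 ± 0.32). In DNA replication and endocycle, 23 of 29 genes were called lower and none higher, with a median of -0.87. CycE, the cyclin that drives each round of replication in nurse and follicle cells, was at 30.6, 33.5 and 44.3 CPM against 83.4, 135, 105 and 157 CPM (-1.77 ± 0.20, adjusted p = 0.000139). dup and Cdc6, which load the replicative helicase, fell by 1.497 and 1.38 on the log2 scale. Of nucleoporins, a family that the study is known to have examined and that is not independent evidence of a direction, 24 of 28 were called lower and 13 were common (28 and 22 without NGVP16 control 1), with a median of -0.93. Nup54, a protein of the central channel, was at 29.0, 33.4 and 37.8 CPM against 104, 86.6, 105 and 91.7 CPM (-1.54 ± 0.15, adjusted p = 5.17e-05), and Nup50 at 71.6, 81.1 and 90.1 CPM against 257, 212, 237 and 204 CPM (-1.498 ± 0.15). With libraries scaled to the ribosomal protein genes the numbers called lower were 14 of the mitochondrial ribosomal proteins, 4 in DNA replication and endocycle and 3 of the nucleoporins. A change of scaling shifts all genes by nearly the same amount. List medians taken against the median of all genes in the same fit therefore move little and are no check on the calls. They were -1.27 and then -1.10 for mitochondrial ribosomal proteins, -0.987 and -0.998 for DNA replication and endocycle, and -1.05 and -1.07 for nucleoporins. The proteasome had 24 of 34 genes called lower (median -0.53), but with ribosomal protein scaling none was lower, 3 were higher and the median was 0.03. Leaving out 1 library gave 10 of 36 lower without virgin control 1, 11 without SETDB1 GKD 1, 9 without wde GKD 1, and 8 and 10 without Nup154 GKD 1 and 2. The respiratory chain, which sits in the same organelle as the mitochondrial ribosomes, had 62 of 66 genes not called and a median of -0.12. Without NGVP16 control 1 14 of its genes were called higher and 2 lower, and without NGVP16 control 2, 3 and 29. Translation initiation had 22 of 39 genes called lower and 3 higher, with a median of -0.50. eIF4B, which aids the helicase eIF4A, fell by 2.22. With ribosomal protein scaling 2 were called lower. The cytoplasmic ribosomal proteins took 7.66% to 12.3% (median 10.4%) of knockdown counts against 24.1%, 9.50%, 16.1% and 12.7%, and the sides overlapped (exact permutation p = 0.0667, 2-sided). Of these genes 24 of 83 were called lower and 4 higher, against 24.9% and 32.2% of all genes. The number lower turned on single libraries. It was 78 without NGVP16 control 2, 14 without NGVP16 control 1 and 6 without virgin control 1. It was 8 without SETDB1 GKD 1, 5 and 14 without wde GKD 1 and 2, 7 without either Nup154 GKD library and 67 with the exon length trend removed.

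The germline silencing machinery was lower as well, in part. Of 29 genes of the piRNA pathway, which silences transposons with small RNAs, 18 were called lower and 1 higher, with a median of -0.77. Over all genes 24.9% were called lower and 32.2% higher. AGO3 was at 32.1, 47.9 and 61.6 CPM against 121, 239, 197 and 157 CPM (-1.89 ± 0.22, adjusted p = 0.000149), and aub, the other cytoplasmic Piwi protein of the ping-pong cycle, fell by 1.51. rhi, the HP1 protein that marks germline piRNA clusters, was at 20.9 and 26.8 CPM (SETDB1), 5.23 and 5.91 CPM (wde) and 13.3 and 11.6 CPM (Nup154), against 42.2, 46.0, 46.0 and 37.2 CPM (-1.86 ± 0.16, adjusted p among knockdowns = 0.0155). piwi was not called (-0.07 ± 0.24). fs(1)Yb, which works in somatic cells of the ovary, was the member called higher (1.38 ± 0.18). With ribosomal protein scaling 7 of the 29 were called lower, and without NGVP16 control 2, 3 were called higher. Among 24 genes of H3K9 methylation and heterochromatin, 11 were called lower and 2 higher. G9a, an H3K9 methyltransferase, was at 86.9, 92.5 and 118 CPM against 186, 509, 270.4 and 459 CPM (-1.87 ± 0.29, adjusted p = 0.000803). Su(var)3-9, the methyltransferase of pericentric heterochromatin, fell by 1.09. HP6 was at 20.6 and 16.2 CPM (SETDB1), 3.39 and 2.36 CPM (wde) and 0.178 and 0 CPM (Nup154), against 0.762, 0.0805, 0.0519 and 0.142 CPM, so Nup154 GKD lay within the controls, and the call of a rise was lost without the SETDB1 or the wde set. With ribosomal protein scaling 3 of the 24 were called lower. Without NGVP16 control 1 the list had 16 lower and 1 higher, and without NGVP16 control 2, 10 and 7. Without any other single library 0 or 1 was called higher.

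Genes of early germ cells went both ways. Of 22 tested, 7 were called higher and 10 lower, against 32.2% and 24.9% of all genes, so the share higher was that of all genes. otu, needed for cyst growth and oocyte formation, was at 18.6, 43.7 and 59.8 CPM against 253, 554, 555 and 844 CPM (-3.67 ± 0.36, adjusted p = 6.35e-05). bam, the differentiation factor of stem cell daughters, fell by 1.71 and was common, while its partner bgcn rose by 2.34 on the log2 scale. Sxl, the switch protein of female identity, was at 0.24 ± 0.27 and was not called. Of 21 meiosis genes 3 were called higher and 4 lower, smaller shares than over all genes. Without NGVP16 control 1 the counts were 3 and 8, without NGVP16 control 2, 5 and 4, and with the exon length trend removed 3 and 11. The higher ones act on chromosome cohesion and pairing. ord, a cohesion protein, was at 5.22, 8.33 and 30.4 CPM against 0, 2.09, 1.09 and 0.853 CPM (3.46 ± 0.69, adjusted p = 0.00291). sunn, its partner in cohesion, rose by 2.64, and cona, a protein of the synaptonemal complex, by 2.24. spn-B, a recombination protein, was at 0.678, 2.09 and 2.42 CPM against 12.3, 6.76, 8.10 and 6.68 CPM (-2.29 ± 0.36). Of 17 genes for ring canals and the emptying of nurse cells, 9 were called higher and 4 lower. The number higher was 4 without virgin control 1 or without SETDB1 GKD 2, and 5 without virgin control 2. With the exon length trend removed 5 were higher and 6 lower. cher, the filamin of ring canals, was at 334, 512 and 1217 CPM against 40.8, 214, 259 and 319 CPM (1.67 ± 0.41, adjusted p = 0.00762). hts, the adducin of fusomes and ring canals, was at 489, 555 and 655 CPM against 118, 315, 229.6 and 267 CPM (1.26 ± 0.27). qua, a villin-like protein of nurse cell actin cables, was at 10.3, 23.9 and 32.5 CPM against 68.8, 79.5, 98.1 and 97.2 CPM (-2.02 ± 0.17, adjusted p = 3.2e-05). The call of cher was lost without the Nup154 GKD set, and that of hts with the exon length trend removed.

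Several paralogs of ribosome and translation genes were high in the knockdowns. RpL22-like (FBgn0034837, chromosome 2R, 23246610 to 23247893), a paralog of RpL22 used in germ cells, was at 202 and 125 CPM (SETDB1), 19.6 and 12.9 CPM (wde) and 3.20 and 5.89 CPM (Nup154), against 0, 0.402, 0.208 and 0.284 CPM. All knockdowns lay above all controls (6.55 ± 0.50, adjusted p = 1.85e-05), and the sets differed among themselves (adjusted p = 0.00704). RpL37-2 was at 51.4 and 41.3, 5.52 and 2.85 and 0.888 and 1.04 CPM in the same order, against 0, 0.322, 0.0519 and 0 CPM. RpS19b was at 16.3, 30.7 and 67.0 CPM against 3.94, 2.74, 5.19 and 1.85 CPM (3.18 ± 0.30), and RpS10a at 13.9, 15.8 and 43.9 CPM against 3.05, 2.33, 1.401 and 1.28 CPM (3.46 ± 0.22). RpS19b is a gene the study is known to have examined. These 4 were the 4 called higher of 83 cytoplasmic ribosomal proteins, and all 4 were common. gNacalpha, a paralog of the nascent polypeptide-associated complex used in the germline, was at 15.4, 94.1 and 211 CPM against 2.16, 0.402, 0.727 and 0.426 CPM (6.36 ± 0.45, adjusted p = 1.4e-05). eIF4E3, a cap-binding protein known from the male germline, held 3 counts over the 4 controls, and its knockdown level, 1.30 to 14.1 CPM, was higher by a ratio of 108 (95% exact interval 36.8 to 527). eIF3f2 had no count in any control and was at 32.9 and 17.4 CPM (SETDB1), 1.26 and 0.984 CPM (wde) and 1.15 and 0.607 CPM (Nup154), at least 164-fold higher against a floor of 3 counts over the controls. ATPsynepsilonL, a paralog of an ATP synthase subunit, was at 1.91, 28.0 and 55.7 CPM against 0, 0.402, 0.311 and 0.142 CPM (5.97 ± 0.57). In each of these 8 genes the SETDB1 GKD pair was the highest of the 3 knockdowns. Paralogs share sequence, and the counting of reads that fit more than 1 copy is not given in the sources used here.

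Genes of the muscle sheath were higher in the knockdowns. Of 33 muscle genes tested, 29 were called higher and 28 were common, against 32.2% called higher over all genes, with a median of 2.81. They took 2.80% to 3.47% (median 2.96%) of the counts in the knockdowns against 0.487%, 0.628%, 0.397% and 0.431% in the controls. bt, a giant kinase of muscle filaments also known as projectin, was at 1493, 1987 and 2449 CPM against 138, 586, 44.6 and 140.4 CPM (3.41 ± 0.50, adjusted p = 0.000584). sls, the fly titin, was at 529, 989 and 1133 CPM against 70.9, 238, 22.3 and 65.0 CPM (3.50 ± 0.47, adjusted p = 0.000373). The change of bt ran from 1.87 to 4.38 over the alternatives and that of sls from 1.22 to 4.40, with neither call lost. Mhc, the muscle myosin heavy chain, rose by 3.07 on the log2 scale. The integrin mys and its adaptors rhea and Ilk, which also serve other cells, rose by 1.68, 1.58 and 0.77. All 6 knockdown libraries lay above all 4 controls in the muscle share.

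**Figure D4:**
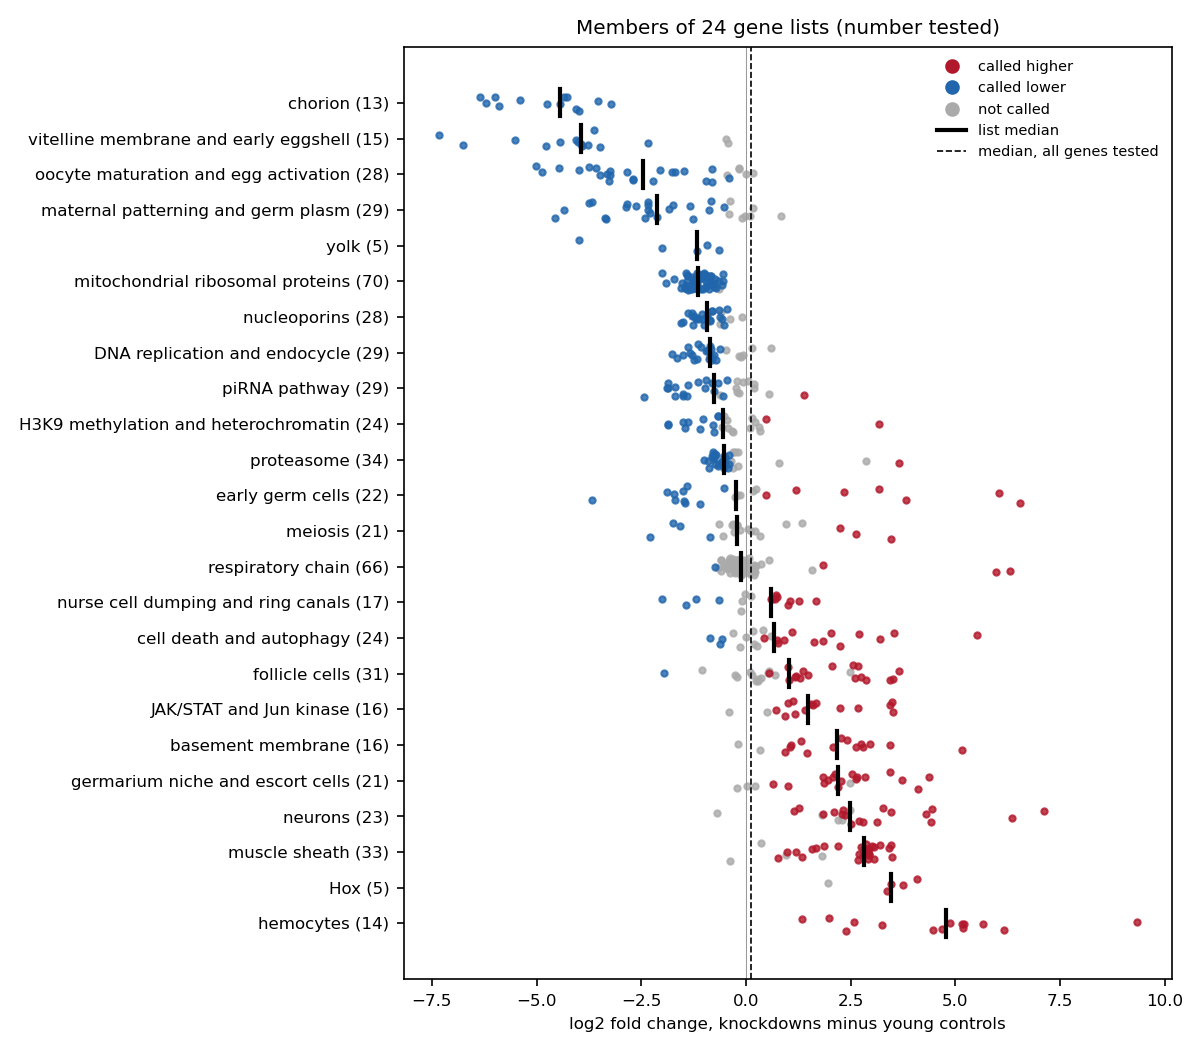
Log2 fold change of each tested member of 24 gene lists, with 1 point a gene, red if called higher, blue if called lower and grey if not called. Black bars are list medians and the dashed line is the median over all genes tested, 0.12. Eggshell lists lie at the low end and hemocyte, Hox and muscle lists at the high end. Values of genes with a set at 0 counts depend on the prior count of the fit.

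Hemocyte genes, which mark the fly's blood cells, rose further. All 14 tested were called higher and common, against 32.2% and 19.5% of all genes, and 14 were called higher in every alternative run. The median was 4.78 (4.67 with 2 genes that have a set at 0 counts held at the floor). It was 3.26 with the NGVP16 pair as the only control. Hml, the clotting protein hemolectin, was at 333, 532 and 751 CPM against 7.12, 19.8, 8.62 and 21.0 CPM (5.198 ± 0.46, adjusted p = 3.7e-05). NimC1, a phagocytic receptor of plasmatocytes, was at 44.8, 51.7 and 193 CPM against 9.66, 12.7, 0.208 and 0.142 CPM (5.65 ± 0.22, adjusted p = 6.2e-06). eater, another such receptor, was at 35.6, 44.6 and 73.1 CPM against 6.48, 4.10, 0.934 and 0.853 CPM (4.46 ± 0.23, adjusted p = 7.09e-06). For NimC1 and eater the virgin pair lay below the NGVP16 pair, and the size of both rises depended on the setting. The change of NimC1 ran from 2.595 to 8.503 over the alternatives and that of eater from 3.04 to 5.67, with neither call lost. Sr-CIV, a scavenger receptor, had no count in any control and lay at 1.91 to 23.4 CPM in the knockdowns, at least 159-fold higher. The list took 0.167% to 0.454% of knockdown counts and 0.0181% to 0.0371% of control counts, and from the lowest share up the knockdowns stood SETDB1, wde and Nup154, with no overlap of their pairs. Basement membrane genes were higher too, 14 of 16 called, against 32.2% of all genes, with a median of 2.17. Their shares did not follow that order, and the highest and lowest knockdown shares were both of wde GKD (1.70% and 1.15%). Pxn, the peroxidase that crosslinks collagen, which the hemocyte list also holds, was at 572, 1238 and 2437 CPM against 12.1, 31.1, 47.3 and 67.0 CPM (5.16 ± 0.35, adjusted p = 1.2e-05). Ppn, the matrix protein papilin, was at 2177, 2656 and 3698 CPM against 185, 548, 228 and 443 CPM (2.97 ± 0.39). The collagen genes vkg and Col4a1 rose by 1.05 and 1.07, the second with overlap.

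Most genes of the somatic cells of the germarium were higher. Of 21 genes of niche and escort cells, 17 were called higher and none lower, with a median of 2.21. hh, a signal of the niche, was at 4.23, 7.85 and 14.5 CPM against 0.762, 0.644, 0.675 and 0.995 CPM (3.44 ± 0.44, adjusted p = 0.000259). bab2, a transcription factor of terminal filament cells, was at 64.7, 73.1 and 125 CPM against 6.99, 10.5, 4.10 and 4.12 CPM (3.72 ± 0.24, adjusted p = 9.5e-06). Wnt4, a signal of escort cells, rose by 2.84, ptc, the receptor of Hedgehog, by 2.28, and dpp, the signal that keeps stem cells, by 2.53. tj, a transcription factor of escort and follicle cells, was not called (-0.21 ± 0.18). Follicle cell genes were mixed. Of 31 tested, 17 were called higher and 1 lower, against 32.2% and 24.9% of all genes, with a median of 1.04. Fas3, the adhesion protein of young follicle cells and polar cells, was at 586, 639 and 939 CPM against 48.5, 71.5, 63.5 and 67.0 CPM (3.51 ± 0.20, adjusted p = 7.42e-06). cas, a transcription factor of early follicle cell precursors, was at 44.5, 57.7 and 93.9 CPM against 8.26, 10.1, 1.97 and 3.70 CPM (3.65 ± 0.24, adjusted p = 9.92e-06). Cad74A, a cadherin of the late follicle cells that shape eggshell structures, was the 1 called lower (-1.95 ± 0.44), and slbo, the regulator of migrating border cells, was at -1.04 ± 0.58 and not called. With the exon length trend removed, 13 of the 31 were called higher and 7 lower, and without NGVP16 control 1, 15 and 3.

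Hox genes, which set the identity of body segments, were higher too. Of 5 tested, 4 were called higher and common, against 32.2% and 19.5% of all genes, and lab was not called (1.96 ± 1.81). abd-A was at 234, 296 and 400.0 CPM against 10.3, 35.5, 12.6 and 15.6 CPM (4.08 ± 0.37, adjusted p = 4.33e-05), Antp at 26.8, 68.7 and 111 CPM against 4.70, 14.2, 3.94 and 1.85 CPM (3.47 ± 0.39), and Abd-B at 16.9, 19.7 and 26.5 CPM against 1.91, 3.78, 1.25 and 1.71 CPM (3.37 ± 0.31). No control was at 0 for these 3 genes. The muscle and reproductive tract lists were higher in the same libraries, and their part in these values was not tested.

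JAK/STAT and Jun kinase genes were also higher, 14 of 16 called with a median of 1.48. kay, the fly Fos, was at 364, 451 and 479 CPM against 49.1, 93.2, 61.5 and 72.4 CPM (2.67 ± 0.23, adjusted p = 3.43e-05). Mmp1, a matrix protease and a target of Jun kinase in wounds and tumours, was at 67.2, 102 and 156 CPM against 8.64, 20.8, 5.45 and 7.96 CPM (3.43 ± 0.36). puc, the phosphatase that feeds back on Jun kinase, rose by 1.68, and Socs36E, its counterpart on JAK/STAT, by 1.59. grnd and egr, receptor and ligand of the tumour necrosis factor pathway, rose by 3.49 and 2.24. Of 24 cell death and autophagy genes, 13 were called higher and 3 lower, against 32.2% and 24.9% of all genes. rpr and hid, which free caspases from inhibition, rose by 3.53 and 1.62, and Buffy, of the Bcl-2 family, was at 9.66, 21.8 and 26.8 CPM against 4.45, 2.33, 2.70 and 1.99 CPM (2.69 ± 0.28). Dcp-1, the effector caspase of germline death, fell by 0.85, and with ribosomal protein scaling no gene of the list was called lower. The number lower was 5 without NGVP16 control 1.

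Heat shock genes went both ways. Of 18 tested, 11 were called higher, among them Hsp68 and 5 copies of Hsp70, and 4 lower. Over all genes 32.2% were called higher and 24.9% lower. Hsp68 was at 311 and 306 CPM (SETDB1), 328 and 317 CPM (wde) and 980.3 and 1002 CPM (Nup154), against 13.2, 14.0, 56.3 and 35.1 CPM (4.21 ± 0.21, adjusted p = 7.09e-06). Hsp70Ba was at 10.9, 23.9 and 45.2 CPM against 0.254, 0.402, 1.66 and 0.711 CPM (5.09 ± 0.37), and Hsp67Bc at 29.6, 92.0 and 128 CPM against 3.81, 2.01, 3.69 and 5.26 CPM (4.36 ± 0.30). The Hsp70 copies are near identical, so the values of single copies are uncertain. The 4 lower genes were Hsp60A, Hsp83, Hsc70-5 and Hsc70-4, abundant chaperones that unstressed cells also make, at -1.60 to -0.76. The 5 Hsp70 copies include Hsp70Bb, whose virgin controls, at 83.3 and 155 CPM, overlapped the knockdowns. The list as a whole took a smaller share in the knockdowns, 1.17% ± 0.192 (SD, n = 6) against 1.84% ± 0.561 (SD, n = 4), and the sides overlapped (exact permutation p = 0.0381, 2-sided, adjusted p = 0.0464).

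Lists of tissues that lie next to the ovary or supply it were higher too, less evenly. Of 23 neuron genes, 18 were called higher, but 12 without virgin control 1 and 7 when the NGVP16 pair was the only control. Syt4, a synaptotagmin, was at 11.9, 31.8 and 64.5 CPM against 0.254, 0.483, 0.156 and 0 CPM (7.12 ± 0.39, adjusted p = 7.09e-06), and Vmat, the vesicular transporter of amines, at 79.5 and 61.8, 191 and 220.4 and 404 and 379.7 CPM in SETDB1, wde and Nup154 GKD against 4.32 to 11.8 CPM in the controls (4.43 ± 0.23). elav, the defining marker of neurons, rose by 2.32 and was common. Reproductive tract genes had 8 of 12 called higher. Octbeta2R, an octopamine receptor of the oviduct and its epithelium, was at 53.7, 64.4 and 116 CPM against 5.34, 9.01, 4.88 and 3.84 CPM (3.68 ± 0.22, adjusted p = 8.25e-06). lz, which specifies the glands that store sperm and also crystal cells of the blood, had no count in the controls and lay at 0.191 to 1.77 CPM in the knockdowns, at least 12.6-fold higher. Fat body genes had 8 of 15 called higher and 1 lower, against 32.2% and 24.9% of all genes, with a median of 1.76. Of the 15 genes, 4 were common higher and 1 common lower, against 19.5% and 13.7% of all genes. Against the NGVP16 pair alone 3 were called higher and 2 lower, with a median of 0.41. By knockdown the list median was 2.18 (SETDB1), 3.27 (wde) and 0.49 (Nup154). apolpp, the lipoprotein of hemolymph, was at 770.0 and 241 CPM (SETDB1), 1082 and 1678 CPM (wde) and 133 and 116 CPM (Nup154), against 30.8, 66.8, 21.4 and 67.4 CPM (3.25 ± 0.49). Gut genes were carried by single libraries. They took 0.243% of the counts of SETDB1 GKD 1 and 0.104% of wde GKD 1 but 3.42e-04% to 0.00828% of the other knockdown libraries and 1.35e-04% to 0.0149% of the controls. Of 20, 8 were called higher and 2 were common higher, against 32.2% and 19.5% of all genes. Leaving out NGVP16 control 1 or 2 or virgin control 1 or 2 in turn left 1, 0, 0 and 3 called higher of 21. Without SETDB1 GKD 1 there were 2, and without SETDB1 GKD 2, 13.

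The rise that leads by size, LManVI (FBgn0032069, chromosome 2L, 8777661 to 8781252), followed that pattern. This lysosomal mannosidase gene had no count in any control and was at 85.2, 0.765, 749, 31.8, 6.75 and 4.33 CPM in SETDB1 GKD 1 and 2, wde GKD 1 and 2 and Nup154 GKD 1 and 2, at least 2136-fold higher against a floor of 3 counts over the controls. Its neighbour LManV (chromosome 2L, 8772946 to 8776263) was at 41.4, 0.191, 289.6, 14.8, 1.33 and 1.91 CPM in the same order, with 1 count in the controls, a ratio of 2575 (95% exact interval 462 to 101723). The 2 libraries highest in both genes, wde GKD 1 and SETDB1 GKD 1, were also the highest in the gut list, which holds LManV. The part of gut tissue in these values was not tested. Calls of the 2 genes were lost in 11 and 9 of the alternatives.

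Other large rises were seen in all knockdown libraries with less spread. stol (FBgn0028863, chromosome 2L, 15644183 to 15718272), a protein related to the accessory subunit of calcium channels, was at 18.4, 45.3 and 181 CPM against 0.508, 0.241, 1.82 and 1.56 CPM (6.09 ± 0.25, adjusted p = 6.2e-06). t, the tan hydrolase that recycles dopamine and histamine, was at 21.9, 90.6 and 107 CPM against 3.43, 1.45, 0.208 and 0.426 CPM (6.35 ± 0.38, adjusted p = 8.25e-06). y, which acts in dark pigment of the cuticle, was at 5.42, 9.82 and 16.8 CPM against 0, 0.241, 0 and 0.142 CPM (6.79 ± 0.83, adjusted p = 0.000212). y is a common marker of laboratory strains, and the labels do not give the strains. SPR, the sex peptide receptor, was at 13.9 and 4.11 CPM (SETDB1), 5.61 and 11.8 CPM (wde) and 88.7 and 78.6 CPM (Nup154) and at 0, 0, 0.519 and 2.99 CPM in the controls. fkh, a forkhead transcription factor, was at 9.18, 30.2 and 115.1 CPM against 5.08, 2.98, 0 and 0.142 CPM (6.31 ± 0.66), and the potassium channel Irk2 at 6.79, 40.0 and 71.4 CPM against 6.23, 2.49, 0 and 0.142 CPM (6.24 ± 0.70). The virgin pair was near 0 for both genes, and the size of these 2 rises depended on the setting. Over the alternatives fkh ran from 2.97 to 9.44 and Irk2 from 2.88 to 9.43. CHKov2 and Nep3 had narrow spread on both sides. CHKov2 was at 46.7, 49.2 and 73.8 CPM against 6.48, 6.52, 3.69 and 3.70 CPM (3.48 ± 0.15, adjusted p = 7.09e-06), and Nep3, a neprilysin-like peptidase, at 53.2, 68.1 and 93.5 CPM against 3.94, 5.47, 6.64 and 7.25 CPM (3.59 ± 0.18, adjusted p = 7.09e-06).

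Immunity genes had 12 of 26 called higher, 5 or 6 when NGVP16 control 1 or 2 or virgin control 1 was left out and 19 without virgin control 2. Over all genes 32.2% were called higher. wde GKD 1 held the largest immunity share, 0.313%, against 0.0715% to 0.124% in the other knockdown libraries. Dif, an NF-kappa B factor, rose by 3.63 and was common. Of 73 cytochrome P450 genes 57 were called higher and 4 lower (median 2.88), and of 30 UDP-glycosyltransferases 22 and 1 (median 3.65). The wde GKD pair and SETDB1 GKD 1 held the largest P450 shares, 0.386% to 0.665%, against 0.334% to 0.338% in the other knockdown libraries and 0.244% to 0.346% in the controls. Of 27 tetraspanins 19 were called higher and 3 lower (median 2.36), of 19 cuticle proteins 10 and 1 (2.53, with 6 of 25 higher without virgin control 2 and 5 of 22 without Nup154 GKD 1), of 13 odorant-binding proteins 8 and 1 (2.72) and of 5 Osiris genes 3 and 0 (4.99). Held at the floor where a set had 0 counts, the medians were 2.83 for cytochrome P450, 3.24 for UDP-glycosyltransferases, 2.31 for cuticle proteins, 2.17 for odorant-binding proteins and 4.12 for Osiris genes. Of 17 ecdysone genes 4 were called higher and 7 lower (32.2% and 24.9% over all genes). The number lower was 11 without NGVP16 control 1, 4 without NGVP16 control 2, and 4 and 3 without Nup154 GKD 1 and 2. Eip75B, a nuclear receptor induced by the hormone, rose by 1.67, and dib, an enzyme of its synthesis, fell by 2.63. Testis genes had 5 of 10 called higher and 1 lower (3 of 19 higher without virgin control 1), with shares that overlapped (exact permutation p = 0.743, 2-sided).

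Genes seen on one side only lay almost all on the knockdown side. With 1 or more counts in each knockdown library and 0 in all 4 controls there were 67 genes, 58 of them protein coding, and with the sides exchanged there was 1, a small nucleolar RNA. Besides those above they include CadN2, a neural cadherin paralog, and ChAT, the enzyme that makes acetylcholine. CadN2 was at least 95.4-fold higher over the pooled knockdowns. It had 158 and 196 counts in Nup154 GKD but 11 to 25 in the other knockdown libraries. ChAT was at 0.261 to 1.47 CPM in the knockdowns and at least 13.7-fold higher. Obp57a, an odorant-binding protein, was at 9.41 and 1.15 CPM (SETDB1), 0.968 and 2.95 CPM (wde) and 86.4 and 94.8 CPM (Nup154), at least 509-fold higher. A count of 0 in the controls is limited by their depth and by the unequal size of the sides.

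Some genes changed little. For 335 genes the 95% interval of the change lay within -0.5 to 0.5. Among the most abundant of them, eIF4A, the RNA helicase of translation initiation, was at 2079.6, 2708 and 2808 CPM against 2195, 2082, 3245 and 2762 CPM (0.05 ± 0.18). ATPsynbeta, a catalytic subunit of ATP synthase, was at 1808, 2139.9 and 2559.8 CPM against 2290.4, 1651, 2561 and 2253 CPM (-0.02 ± 0.19), and His3.3B, a replacement histone, at 808, 945 and 1194 CPM against 1003, 779, 1023 and 1019 CPM (0.01 ± 0.18). These small changes are relative to TMM scaling, and the median of all genes moves with the scaling, as given above.

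On the first principal component, which held 58.1% of the variance of log2 CPM, the knockdown libraries lay between -112 and -23.9 and the controls between 71.2 and 130. On the second, with 13.6%, the Nup154 GKD pair lay above 69 and the other libraries between -54.5 and 29.6. Tested directly, 301 genes differed among the knockdowns (2.98% of those tested, and 2328 at an unadjusted p under 0.05), and 123 of these were common genes, 103 higher and 20 lower. In 58 of the 103 and 7 of the 20, Nup154 GKD was the highest and stood further from the middle set than the lowest did. The count of 301 fell to 9 without Nup154 GKD 1, 12 without Nup154 GKD 2, 101 without wde GKD 1, 122 without wde GKD 2 and 140 without SETDB1 GKD 2.

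**Figure D5:**
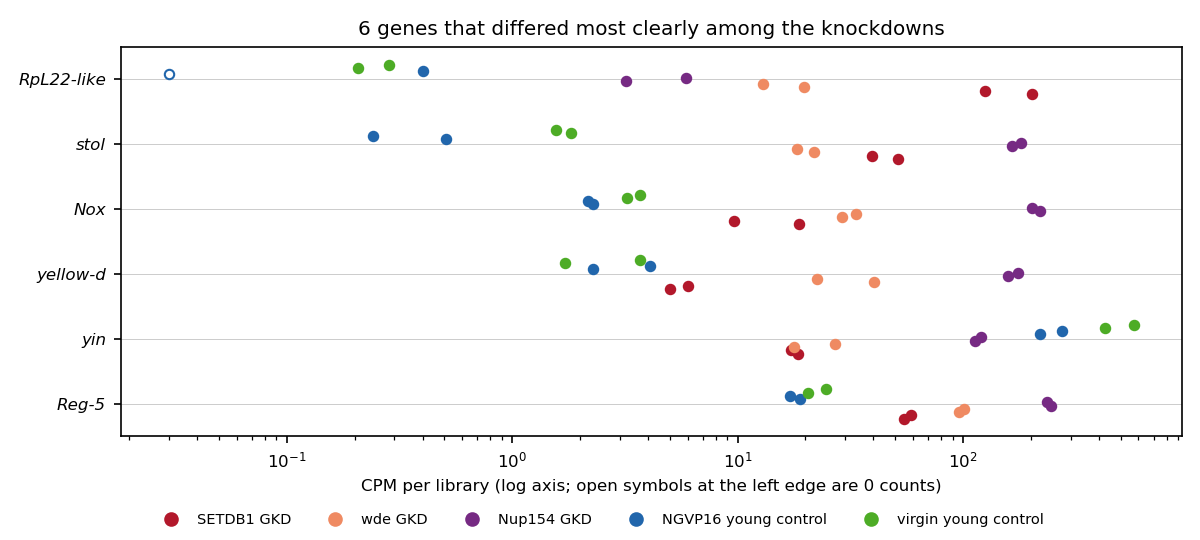
CPM in each of the 10 libraries (horizontal log axis) for the 6 common genes with the smallest p for a difference among the knockdowns. The Nup154 GKD pair is the highest of the knockdowns in stol, Nox, yellow-d, yin and Reg-5 and the lowest in RpL22-like.

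The 6 common genes with the smallest p for a difference were set apart mostly by Nup154 GKD. Nox, an NADPH oxidase, was at 18.6 and 9.66 CPM (SETDB1), 28.9 and 33.4 CPM (wde) and 219.8 and 202 CPM (Nup154), against 2.29, 2.17, 3.22 and 3.70 CPM (adjusted p among knockdowns = 0.00189). Its change against the controls was 2.36 ± 0.27 (SETDB1), 3.49 ± 0.27 (wde) and 6.25 ± 0.28 (Nup154). yellow-d, of the Yellow protein family, was at 5.03 and 6.02, 40.3 and 22.4 and 158 and 176 CPM in the same order, against 2.29, 4.10, 1.71 and 3.70 CPM (adjusted p = 0.00513). The SETDB1 GKD pair of yellow-d lay just above the controls. Reg-5 was at 54.6 and 58.7, 95.9 and 101 and 246 and 236 CPM against 18.9, 17.1, 20.5 and 24.6 CPM (adjusted p = 0.00845). stol was at 51.3 and 39.3, 21.9 and 18.4 and 164 and 181 CPM (adjusted p = 0.00356), with its lowest level in wde GKD. yin, a peptide transporter, was the 1 of the 6 that fell, at 18.4 and 17.3, 17.7 and 27.1 and 113 and 119.7 CPM against 219, 276, 425 and 572 CPM (adjusted p = 0.00619), and it fell least in Nup154 GKD. RpL22-like, given above, ran the other way, highest in SETDB1 GKD. The testis-enriched gene blanks, which the study is known to have examined, was at 109 and 168, 34.2 and 9.55 and 4.35 and 4.51 CPM against 6.86, 0.885, 0.779 and 0.711 CPM (3.81 ± 0.63 over all knockdowns, adjusted p among them = 0.0402), and in Nup154 GKD it lay below NGVP16 control 1.

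Common genes lay on all chromosomes. On the small chromosome 4, 34 of 83 genes tested were common higher and 3 lower. On the X chromosome 16.6% of 1699 genes were common higher and 15.4% lower, and on the other arms 18.8% to 21.1% were higher and 12.5% to 14.3% lower. By exon length, genes were cut into 4 bins of near equal size. The shortest bin had 10.1% common higher and 13.6% common lower, and the longest 29.9% and 6.63%. By level, the lowest of 4 bins had 22.4% common higher and 2.69% lower. Length also marks the difference between the libraries of the control pairs, and its part in these shares was not tested. These shares are descriptions, and genes are not independent replicates.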

How the data were processed

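Poly(A) RNA of whole ovaries was sequenced with a directional kit, per the labels' protocols. HISAT2 2.1.0, featureCounts 1.4.6, DESeq2 1.24.0 and the genome build dm6 are named in the submitters' processing notes, while the strand setting and the treatment of reads that fit several places are given in none of the sources used. The deposited values are whole-number read counts per gene, not normalized, for 17023 FlyBase identifiers. Of these, 16647 had a gene name, and the others held 5.95% to 6.94% of the counts per library.

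Counts of 10 libraries were fitted in R 4.3.3 with edgeR 4.0.16 (filterByExpr by set, TMM, glmQLFit with robust estimation, quasi-likelihood F test), with 1 mean for each of 5 sets and 5 residual degrees of freedom. The contrast was the mean of the 3 knockdown sets minus the mean of the 2 control sets, with Benjamini-Hochberg adjustment over 10105 genes and a threshold of 0.05. An F test over the 3 knockdown means tested differences among them. Common genes were called and had no overlap in CPM of the 6 and the 4 libraries. Shares of counts were compared by an exact permutation test. Where the controls held 0 counts, a lower bound was computed against a floor of 3 counts over the side, and with 1 to 3 counts a ratio with its exact 95% interval. Intervals and floors cover counting error only. The procedure was tested on simulated data.

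The members and gene lists were chosen with earlier results of these data known. Genes were named by a rule: egg, wde and Nup154, the 15 largest rises and 15 largest falls among common named protein-coding genes at 10 CPM or more, the 10 lowest adjusted p, up to 4 called members of each list with the largest change, the 6 common genes with the smallest p among knockdowns, and the 10 most abundant genes whose 95% interval lay within -0.5 to 0.5. Other list members were named after their values were seen, for their roles. Alternatives were other scalings, no filter, DESeq2 1.42.0, other sets of libraries, removal of the exon length trend, a replicate block, a 2-fold test and leaving out each library. Replicate numbers were not taken as pairs, and the labels do not say whether same-numbered libraries were prepared together. The 2 adult control libraries were left out, and promoter sequences were not analysed here.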

Additional observations from a re-analysis of the deposited data

Results flagged for a closer look

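Of the common genes, 123 differed among the 3 knockdowns by the F test of the difference itself. Adjusted p-values below are those of this test in edgeR, over all genes tested. The Nup154 GKD pair was the highest of the knockdowns for Nox (adjusted p = 0.00189), stol (0.00356), yellow-d (0.00513), yin (0.00619), Reg-5 (0.00845), Vmat (0.0153), Hsp68 (0.0204), Def (0.0246), Send1 (0.0274), APC7 (0.0105) and Cp36 (0.0318). The calls of Def and Send1 against the controls were lost without the Nup154 GKD set. The SETDB1 GKD pair was the highest for RpL22-like (0.00704), squ (0.0116), RpL37-2 (0.0127), rhi (0.0155), eIF3f2 (0.0204), HP6 (0.0289), gNacalpha (0.0295), ATPsynepsilonL (0.0307), RpS10a (0.0318) and blanks (0.0402). The wde GKD pair was the highest for NimC1 (0.0103) and Osi19 (0.0289) and the lowest for pgc (0.0355) and Obp44a (0.048). HP6, Def, Send1 and blanks were called against the controls but overlapped with them. These differences rest on pairs of libraries. When Nup154 GKD 1 or 2 was left out, 9 or 12 genes differed among the knockdowns in place of 301. How many of these are among the 301 was not counted.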

How the results depend on the processing

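The number of genes called (5767, 3250 higher and 2517 lower) and of common genes (1974 higher and 1388 lower) moved by over 1.5 times under these settings. With scaling to the ribosomal protein genes 3698 were called, 533 lower, and 269 were common lower. Against the NGVP16 pair alone 1895 were higher, and against the virgin pair alone 2599 were common lower. With the exon length trend removed 3893 were lower, 2460 common lower and 1268 differed among the knockdowns. Differences among the knockdowns (301) numbered 581 with no filter and 1643 with DESeq2. A test of at least 2-fold called 2624, with 2067 higher and 557 lower. In the 8 libraries with a number, the replicate block gave 3568 genes, 1735 higher, against 4100 and 1895 without it. Same-numbered deviations correlated at -0.179 to 0.396, the highest between SETDB1 GKD and wde GKD. The numbers were not taken as pairs, and a shared preparation of same-numbered libraries was not tested. With the block the call of Yp2 was lost (adjusted p = 0.0708). The cause of these shifts was not tested.

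Leaving out each library in turn gave 4562 to 6610 called genes, 2469 to 3696 higher and 2047 to 3038 lower, 1772 to 2291 common higher, 1378 to 2158 common lower and 9 to 348 that differed among the knockdowns. Against the controls it gave 1469 to 3148 higher and 463 to 2221 lower for SETDB1 GKD, 1920 to 3599 and 596 to 2645 for wde GKD, and 1925 to 3493 and 738 to 2675 for Nup154 GKD.

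Yp3 reversed to 0.35 against the NGVP16 pair alone and to 0.38 with the replicate block. The 8 numbered libraries without the block are the same fit as the NGVP16 pair alone. Tallies over the alternatives count it under both names. wde reversed to -0.091 without the SETDB1 set and -0.092 with the length trend removed, and ran from -0.0471 to 0.90 on leaving out a control library, the lowest being without NGVP16 control 1. Without that library the difference in share, in percentage points, reversed for meiosis (-0.00257), testis (-1.44e-04) and the respiratory chain (0.0373), and that of testis also without ribosomal protein genes in the total (-7.84e-05). Over the named genes, 4244 values stayed the same, 250 lost the call, 6 gained it and 6 changed sign. For the genes named because they changed little, the same meant a fold change within 1 SE of that reported. In these genes 35 values moved by more. For all other named genes it meant the same sign and call. Of list counts, 1538 stayed within 1.5 times and 256 did not.

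Depth limits statements on genes at 0 counts, and 2 libraries a set limit the tests among knockdowns. Whole ovaries do not separate cell numbers from RNA per cell.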
